A study of Mus musculus with 18 samples.

Results

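The epidermal growth factor (EGF) family genes described here are 3 receptor genes (Egfr, Erbb2 and Erbb3) and 7 ligand genes (Areg, Ereg, Hbegf, Nrg1, Tgfa, Btc and Epgn). They were taken by gene symbol from a table of read counts for 55486 mouse genes, and all 10 were in the table. All 10 were also among the 14273 genes with enough counts to be tested, and each of them passed that filter on low counts with at least 10 reads in every library. The counts come from RNA sequencing of 18 libraries of mammary normal fibroblasts (NFs) from FVB/n mice. NFs were sorted by the surface peptidase CD26, which is encoded by Dpp4, into CD26- and CD26+ NFs and were then cultured for 7 days. The 4 groups are CD26- NFs in control conditioned medium (replicates 1 to 3, n = 3), CD26- NFs in tumor conditioned medium (CM; replicates 4 to 9, n = 6), CD26+ NFs in control conditioned medium (replicates 10 to 12, n = 3) and CD26+ NFs in CM (replicates 13 to 18, n = 6).

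CM was collected from 6 WEPtn tumor lines, which are named 13-MCB-17, 10-SJK-221, 18-MCB-12, 13-MCB-44, 13-MCB-90 and 13-MCB-138. WEPtn tumors model invasive lobular breast cancer and arise from gene loss in the mammary epithelium through WapCre. Each line conditioned the medium of 1 culture of each cell type, so the spread within a CM group holds the differences between lines. Per the study's methods, the NFs came from adult females without WapCre, of mTmG mice or of mice with floxed alleles, and which strain gave which library was not given. The tumor lines were themselves kept in a medium containing EGF and insulin, and the make-up of the control conditioned medium was not given in the sources used here. Nothing in the labels says that the replicate cultures came from separate animals, so the p-values below measure the spread between these cultures, which may be partly technical.

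EGF family ligands are made as membrane-anchored precursors that cell surface proteases cut free. EGFR binds EGF, transforming growth factor alpha, amphiregulin, epiregulin, betacellulin, heparin-binding EGF-like growth factor and epigen, whereas neuregulin 1 binds ERBB3 and ERBB4. ERBB2 has no ligand of its own and acts as the partner of the other receptors, and ERBB3 has little kinase activity and signals through its partner. In the mammary gland, epithelial amphiregulin is known to act on EGFR of the stroma during ductal growth, and the family signals through the ERK and PI3K pathways.

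On GRCm38, the build of the table, 4 of the 7 ligand genes are neighbors on chromosome 5. Epgn (91027464 to 91035215), Ereg (91074622 to 91093646) and Areg (91139599 to 91148432) lie on the plus strand, and Btc (91357261 to 91402994) on the minus strand. They are the 4 protein-coding genes among 7 annotated genes in 375.5 kb of GENCODE release M21. Egfr (16752203 to 16918158) and Erbb2 (98412470 to 98437716) are both on chromosome 11, Erbb3 (128567523 to 128589652) on chromosome 10, Tgfa (86195223 to 86275719) on chromosome 6 and Nrg1 (31814551 to 32884797) on chromosome 8. Hbegf lies on a further chromosome. The promoters of 3 of the neighbors are shown because these genes lie close together and their results are given one by one below. RefSeq gave a 300-base promoter for 6 members, Egfr, Erbb2, Areg, Tgfa, Btc and Epgn. Only the bases before the annotated start are printed, 5′ to 3′ on the strand of the gene and on GRCm38.p6, with a full cAMP response element (CRE, TGACGTCA) and a TATA box (TATAAA) in capitals.
Epgn promoter, chr5:91027267-91027463 (plus strand): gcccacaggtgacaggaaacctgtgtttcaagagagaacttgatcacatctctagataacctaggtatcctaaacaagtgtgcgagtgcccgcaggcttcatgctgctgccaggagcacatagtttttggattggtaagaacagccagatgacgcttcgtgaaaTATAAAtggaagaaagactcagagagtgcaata
Areg promoter, chr5:91139349-91139598 (plus strand): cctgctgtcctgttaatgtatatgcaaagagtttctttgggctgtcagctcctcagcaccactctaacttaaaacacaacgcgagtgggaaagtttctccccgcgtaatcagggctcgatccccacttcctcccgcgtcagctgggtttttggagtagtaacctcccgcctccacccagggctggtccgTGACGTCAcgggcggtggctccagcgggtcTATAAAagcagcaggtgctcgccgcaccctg
Btc promoter, chr5:91402995-91403244 (minus strand): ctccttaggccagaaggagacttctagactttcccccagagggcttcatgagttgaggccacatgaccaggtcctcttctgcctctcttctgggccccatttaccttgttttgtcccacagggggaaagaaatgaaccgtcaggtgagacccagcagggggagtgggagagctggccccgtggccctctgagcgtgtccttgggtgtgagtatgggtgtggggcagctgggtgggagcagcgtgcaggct

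The Areg promoter holds the full CRE 61 bases and a TATA box 31 bases before the start of the gene. A TATA box lies 33 bases before the start that the table gives for Epgn, and 86 bases before the RefSeq start on which the 300-base window is set, which is 53 bases further downstream. For Areg both sources give the same start. Neither motif is in the Btc window. Among 32851 RefSeq promoters of the same 300 bases (250 before and 50 after the start), 1.79% hold the CRE and 13.6% the TATA box, searched on both strands. The AP-1 motif TGAGTCA (in 5.2% of all promoters) was in none of the 6 windows, and the TEAD motif GGAATG (in 14.7%) was in that of Erbb2 alone. The short CRE core TGACG, which is also part of the full CRE and is found in 20.8% of all promoters, was in the windows of Epgn, Areg, Btc and Erbb2. These are letter matches in short windows and not measured binding.

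Total counts were 9725723 to 14585349 per library. Each gene was tested in edgeR (quasi-likelihood), and FDR below is the p adjusted by Benjamini and Hochberg over all tested genes of a comparison. A gene rose or fell when its FDR was under 0.05, and was called, with the limits of the study, when its log2 fold change was also over 2 or under -2. Levels are CPM, the counts of a gene scaled to a fixed total of TMM-scaled counts in each library, and levels of different genes are compared only as CPM per kb of exon. Markers of the labelled cell types were checked first. The 10 fibroblast markers, collagens among them, summed to 9855 to 21560.5 CPM in CD26- libraries and 29432 to 79848 CPM in CD26+ libraries. Dpp4 was at most 0.171 CPM in every control library of both cell types. In CM it was 0.0776 to 0.881 CPM in CD26- and 0.715 to 7.80 CPM in CD26+ NFs. Transcripts of the sorting marker thus did not separate the control libraries. They overlapped between the CM libraries, where the log2 difference of 3.23 (CD26+ minus CD26- NFs) passed the FDR. The 20 epithelial markers summed to 3717 to 6185 CPM in CD26- libraries and to 833 to 1992 CPM in CD26+ libraries, although the sort of the NFs took cells without EpCAM. Epcam itself was at 134 to 243 CPM in CD26- and 33.4 to 84.5 CPM in CD26+ libraries. In these bulk libraries, fewer cells that express a gene and less of its RNA per cell cannot be told apart.

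**Figure D1:**
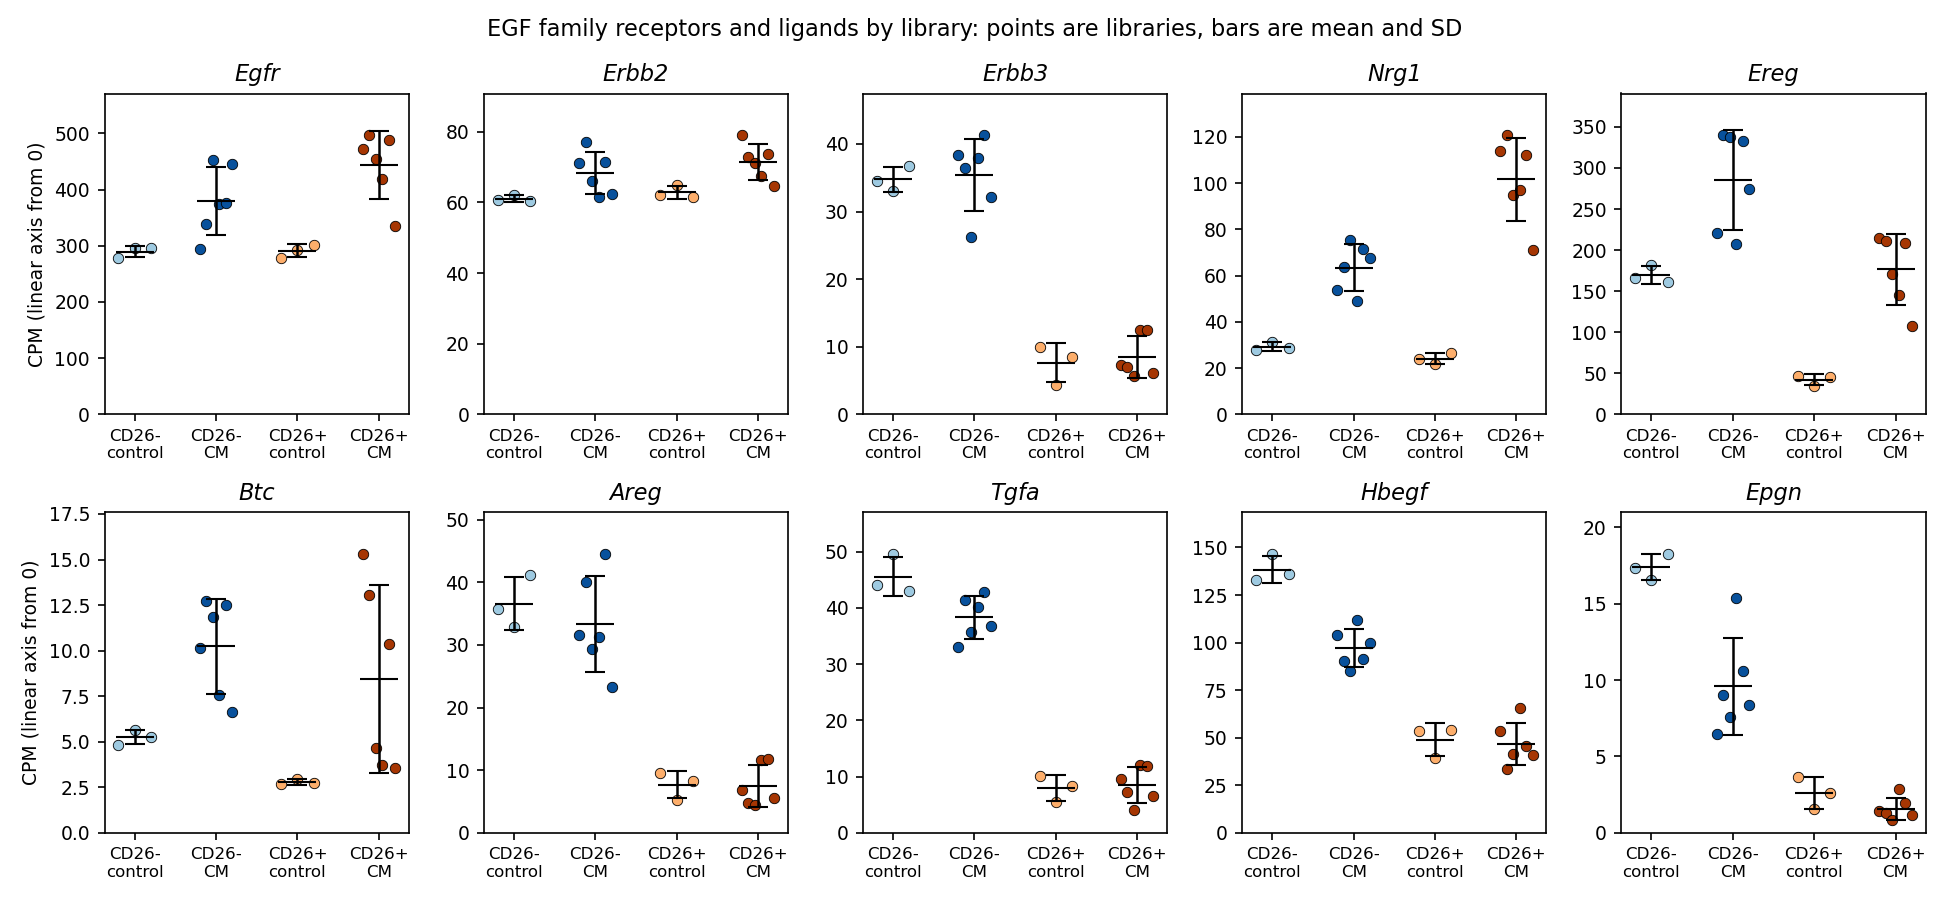
CPM (linear axes from 0) of the 3 receptor and 7 ligand genes in each of the 18 libraries, by group; points are libraries, horizontal bars are means and whiskers SD. Nrg1 and Ereg rise with CM in both cell types, whereas Erbb3, Areg, Tgfa, Hbegf and Epgn sit lower in CD26+ than in CD26- NFs in either medium.

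The receptors differed in level and in what moved them. Egfr was the most abundant receptor transcript, at 25.6 ± 0.906 CPM per kb (SD, n = 3) in CD26- and 25.7 ± 1.00 CPM per kb (SD, n = 3) in CD26+ control libraries. Erbb2 followed with 11.7 ± 0.186 and 12.1 ± 0.350 CPM per kb, and Erbb3 was lowest with 5.78 ± 0.310 and 1.27 ± 0.482 CPM per kb (SD, n = 3 each). The order of the receptors was the same in both cell types, with no overlap between them. Erbb4, the fourth receptor gene of the family, had 0 counts in all 18 libraries, where a floor of 3 counts corresponds to 0.203 to 0.290 CPM, counting error only.

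Egfr rose with CM in both cell types. The CD26- control libraries were at 278, 295 and 296 CPM, and the CD26- CM libraries had a lowest, median and highest level of 294, 376 and 452 CPM. All but 1 of these 6 libraries lay above every control, and the lowest, with CM of 13-MCB-17, lay within the control range. The log2 fold change was 0.39 ± 0.12 (SE, FDR = 0.0422). CD26+ control libraries had 279, 293 and 302 CPM, and CD26+ CM libraries 336, 463 and 497 CPM (lowest, median, highest), all above the controls. There Egfr rose by a log2 fold change of 0.61 ± 0.13 (FDR = 0.00167). The 2 CM effects differed by 0.22 on the log2 scale, with a 95% confidence interval from -0.15 to 0.58 (FDR = 0.471).

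Erbb2 stayed within a narrow range and passed the FDR in none of the 5 comparisons of the 4 groups. It was at 60.3 to 62.2 CPM in CD26- and 61.6 to 65.0 CPM in CD26+ control libraries, and at 61.6 to 77.0 and 64.6 to 79.0 CPM in the CM libraries. The CM effect was 0.16 ± 0.07 in CD26- NFs (log2, FDR = 0.126) and 0.18 ± 0.07 in CD26+ NFs (FDR = 0.0549). With the CM line as a replicate block these values were 0.16 (FDR = 0.0185) and 0.18 (FDR = 0.00532), both past the threshold. Between the cell types in control medium the 95% confidence interval of the log2 difference ran from -0.13 to 0.21.

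Erbb3, the receptor of neuregulins, differed between the cell types and did not pass the FDR for CM. CD26- control libraries were at 33.1, 34.5 and 36.7 CPM and CD26+ control libraries at 4.37, 8.53 and 9.96 CPM. With CM the lowest, median and highest levels were 26.3, 37.2 and 41.3 CPM in CD26- NFs and 5.66, 7.20 and 12.5 CPM in CD26+ NFs. The cell types did not overlap in either medium. Erbb3 was lower in CD26+ NFs by a log2 difference of -2.19 ± 0.28 in control medium (FDR = 5.69e-06) and -2.05 ± 0.20 in CM (FDR = 1.30e-07). Its CM effect had a 95% confidence interval from -0.43 to 0.49 in CD26- NFs and from -0.39 to 0.73 in CD26+ NFs (log2).

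Whether CM changes the ligands was asked in each cell type. Among all 10 members, 3 rose and 2 fell with CM in CD26- NFs, against 7.88% of tested genes that rose and 7.28% that fell. Their median log2 fold change was 0.09, beside 0.01 over all tested genes. None of the 10 passed the limit of 2 on the log2 scale, which 0.904% of tested genes did. An unadjusted p under 0.05 was found for 7 of the 10. The share of all tested genes at that unadjusted threshold was not counted. Counts at it, here and below, therefore cannot be set beside the FDR shares. Of the members, 4 rose and 0 fell in CD26+ NFs, against 15.2% and 13.4% of tested genes. DESeq2 also gave 4 there, and the 5 members with an unadjusted edgeR p under 0.05 were all higher in CM. Their median log2 fold change was 0.18 beside -0.00 over all genes. Ereg and Nrg1 were called there, 2 of 10 members, as were 2.01% of tested genes. Egfr, Ereg and Nrg1 rose in both cell types, and Erbb2, Erbb3, Areg and Tgfa passed the FDR for CM in neither.

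**Figure D2:**
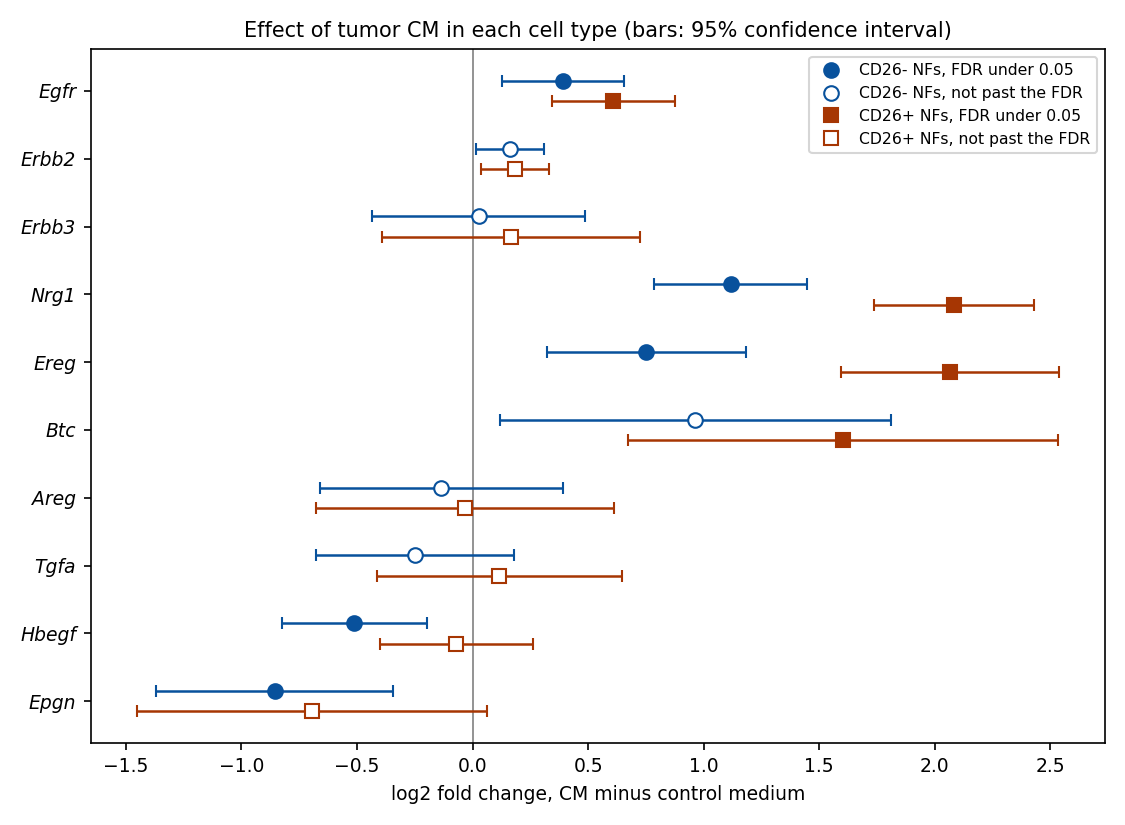
Log2 fold change of CM against control medium with its 95% confidence interval for each member, in CD26- NFs (circles) and CD26+ NFs (squares); filled symbols have an FDR under 0.05. Nrg1 and Ereg lie furthest to the right in CD26+ NFs (2.08 and 2.07), and Hbegf and Epgn are filled on the negative side in CD26- NFs alone. For neither Hbegf nor Epgn did the difference between the CM effects pass the FDR.

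Nrg1, which encodes neuregulin 1, rose in every CM library of both cell types. Control libraries of CD26- NFs were at 27.6, 28.6 and 31.4 CPM, and their CM libraries at 48.9, 65.7 and 75.3 CPM (lowest, median, highest). CD26+ NFs went from 21.8, 23.7 and 26.4 CPM in control medium to 70.9, 104.8 and 121 CPM with CM. No CM library of either cell type overlapped its controls. Nrg1 rose by a log2 fold change of 1.12 ± 0.16 in CD26- NFs, or 2.17-fold (FDR = 0.000348), and of 2.08 ± 0.16 in CD26+ NFs, or 4.24-fold (FDR = 2.22e-07). It was the only member that passed the FDR in CD26- NFs in all 18 fits that left out a library, with an FDR of at most 0.00527.

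Ereg encodes epiregulin, a ligand of EGFR and ERBB4. CD26- control libraries were at 161, 167 and 181 CPM and rose to 208, 304 and 339.8 CPM with CM (lowest, median, highest). CD26+ control libraries were lower, at 34.6, 44.9 and 47.0 CPM, and reached 107, 189.6 and 215 CPM with CM. All 6 CM libraries lay above all controls of the same cell type. The log2 fold change was 0.75 ± 0.20 in CD26- NFs (FDR = 0.0197) and 2.07 ± 0.22, or 4.19-fold, in CD26+ NFs (FDR = 4.74e-06). Leaving out control replicate 1 or 3 gave a log2 fold change of 0.75 or 0.72 in CD26- NFs (FDR = 0.0735 or 0.0955).

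Btc, which encodes betacellulin, was the least abundant member in the control libraries of CD26- NFs per kb of exon. It was at 4.84, 5.28 and 5.64 CPM there and at 6.63, 11.0 and 12.7 CPM with CM. CD26+ libraries had 2.67, 2.75 and 2.96 CPM in control medium and 3.57, 7.51 and 15.3 CPM with CM. Every CM library exceeded its controls, but the CM libraries of CD26+ NFs spread over a 4.28-fold range, from 13-MCB-138 to 13-MCB-17. Btc rose in CD26+ NFs by a log2 fold change of 1.60 ± 0.44 (FDR = 0.0114), which became 1.59 ± 0.53 with an FDR of 0.0518 when the fit held those 2 groups alone. In CD26- NFs the log2 fold change was 0.96 ± 0.40 (FDR = 0.113). It passed the FDR with the CM line as a replicate block (0.91 ± 0.25, FDR = 0.0152) and in a fit of those 2 groups alone (0.97 ± 0.22, FDR = 0.0146).

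Hbegf and Epgn were lower with CM in CD26- NFs. Hbegf, the heparin-binding ligand of EGFR and ERBB4, fell from 133, 136 and 147 CPM in the controls to 85.0, 95.8 and 112 CPM (lowest, median, highest). All 6 CM libraries lay below all controls, with a log2 fold change of -0.51 ± 0.15 (FDR = 0.0278). CD26+ libraries had 39.3, 53.6 and 54.2 CPM in control medium and 33.3, 43.5 and 65.4 CPM with CM, where the groups overlapped (log2 fold change -0.07, 95% confidence interval -0.40 to 0.26). Epgn, which encodes epigen, fell in CD26- NFs from 16.6, 17.3 and 18.3 CPM to 6.49, 8.73 and 15.4 CPM. Again no CM library reached the controls, with a log2 fold change of -0.86 ± 0.24 (FDR = 0.0256). CD26+ libraries were at 1.56, 2.60 and 3.64 CPM and, with CM, at 0.844, 1.36 and 2.85 CPM, from counts of 10 to 45 reads. The log2 fold change there was -0.69 ± 0.36 (FDR = 0.162), and -0.76 ± 0.24 with the CM line as a replicate block (FDR = 0.0212).

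Areg and Tgfa did not pass the FDR for CM in either cell type. Areg, which encodes amphiregulin, was at 32.9, 35.7 and 41.2 CPM in CD26- control libraries and 23.3, 31.5 and 44.5 CPM (lowest, median, highest) with CM. In CD26+ NFs it was at 5.26, 8.24 and 9.47 CPM without and 4.39, 6.18 and 11.8 CPM with CM. The groups overlapped in both cell types, and the 95% confidence interval of the CM effect ran from -0.66 to 0.39 in CD26- and from -0.68 to 0.61 in CD26+ NFs (log2). Tgfa was at 43.0, 44.1 and 49.6 CPM in CD26- controls and at 33.0, 38.5 and 42.9 CPM with CM, where all 6 libraries lay below all controls by a small margin (log2 fold change -0.25 ± 0.20, FDR = 0.440). CD26+ NFs held 5.41, 8.38 and 10.0 CPM of Tgfa without and 3.97, 8.45 and 12.1 CPM with CM.

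The members past the FDR for CM in CD26- NFs, other than Nrg1, each lost it in some fits without a library. The number of members past the FDR there was 1 without control replicate 1 or 3, 2 without control replicate 2 or CM replicate 6 and 3 without CM replicate 8. Of the 18 fits that each left out a library, the FDR was not reached by Egfr in 10, Hbegf in 6, Epgn in 5 and Ereg in 2. Over those 18 fits the log2 fold change was 0.34 to 0.46 for Egfr and 0.70 to 0.83 for Ereg. It was -0.56 to -0.47 for Hbegf and -1.04 to -0.77 for Epgn. The count of all tested genes past the FDR was 825 to 2748 in these fits, against 2164 with every library. In CD26+ NFs the 4 members past the FDR kept it in all 18 fits. In either cell type, the fits without a library of the other cell type leave both compared groups whole. Skeletal muscle markers moved with CM in the same CD26- libraries, where 7 of the 8 tested markers rose and their summed level went from 16.6 to 24.2 CPM in controls to 31.7 to 122 CPM with CM. In CD26+ NFs 0 of the 8 passed the FDR, 0 of them at an unadjusted p under 0.05, and the sum was 3.04 to 5.79 CPM. Myog, the muscle differentiation factor, reached 14.4 CPM in CD26- CM libraries and was at most 0.0758 CPM in CD26+ libraries. Fibroblast markers summed to 62808 to 79848 CPM in CD26+ controls and 29432 to 52492 CPM in CD26+ CM libraries. The part of these markers in the CM effects was not tested.

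The test of the difference between the CM effects asked which members respond more in a cell type. Ereg and Nrg1 rose more in CD26+ NFs, 2 of 10 members against 4.53% of tested genes, and 0 members had the opposite sign past the FDR, against 3.01%. The median difference was 0.29 over the members and 0.01 over all tested genes. The difference was 1.31 ± 0.29 on the log2 scale for Ereg (FDR = 0.0120) and 0.97 ± 0.22 for Nrg1 (FDR = 0.0137). Neither exceeded 2, a limit that 0.392% of tested genes passed, and the same 2 members alone had an unadjusted p under 0.05. DESeq2 also gave 2. CD26+ control replicate 11 had the lowest Ereg and Nrg1 of its group. Without it the difference was 1.17 for Ereg (FDR = 0.0584) and 0.89 for Nrg1 (FDR = 0.0599). For Hbegf the difference was 0.44 with a 95% confidence interval from -0.02 to 0.90 (FDR = 0.219), so its fall in CD26- NFs was not shown to differ from CD26+ NFs. For Epgn it was 0.16 (FDR = 0.863), so its fall was not shown to differ either. For Btc it was 0.64, with an interval from -0.61 to 1.89.

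Which members separate the cell types was compared in control medium and in CM. In control medium 0 members were higher and 6 were lower in CD26+ NFs, against 25.0% of tested genes that were higher and 25.4% that were lower. The 6 were Erbb3, Areg, Ereg, Hbegf, Tgfa and Epgn, and they were also the members with an unadjusted p under 0.05. All but Hbegf were called, 5 of 10 members against 5.97% of tested genes. The median log2 difference of the members was -1.75 beside 0.01 over all tested genes. In CM the same 6 were lower and Nrg1 was higher, against 29.3% of tested genes lower and 29.3% higher, and 4 members were called against 4.16%. The median log2 difference was -0.88 beside -0.00. The comparisons with CM and those between cell types use the same libraries and are not independent of each other.

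**Figure D3:**
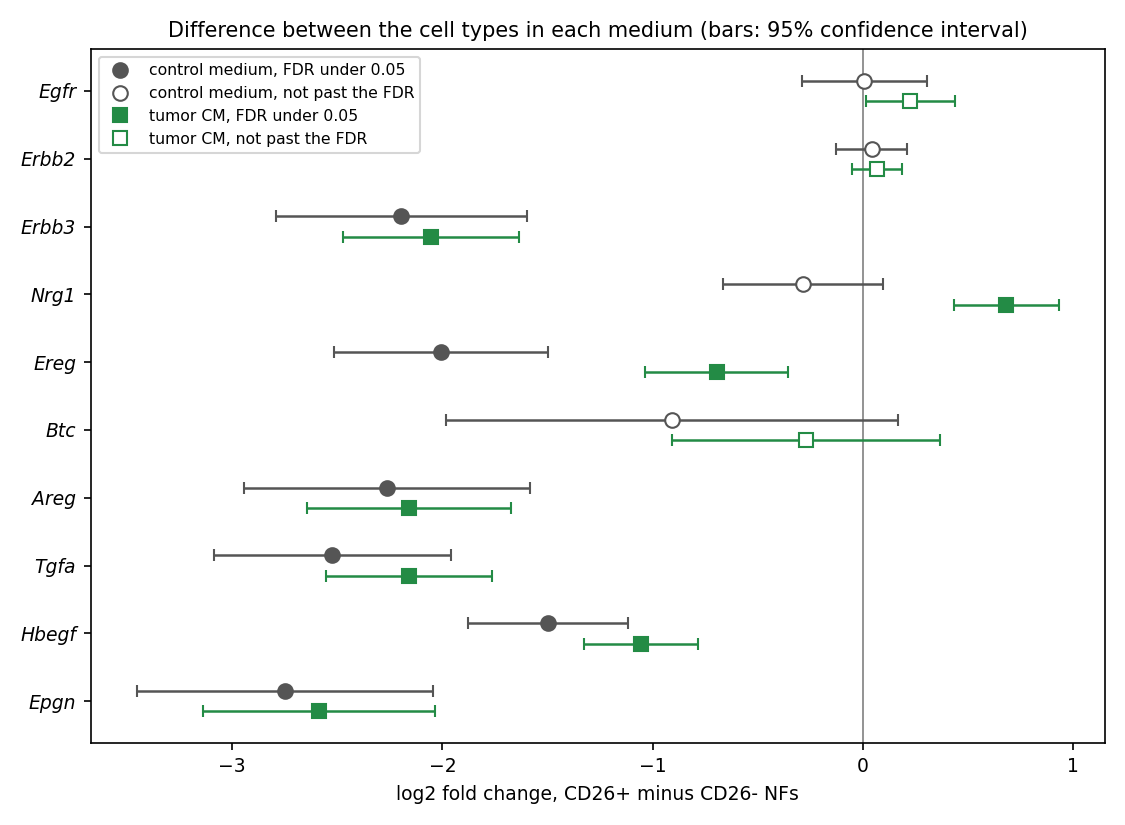
Log2 difference of CD26+ minus CD26- NFs with its 95% confidence interval for each member, in control medium (circles) and in tumor CM (squares); filled symbols have an FDR under 0.05. Erbb3, Areg, Tgfa and Epgn lie at or below -2.05 in both media, Ereg moves from -2.01 to -0.70 and Nrg1 from -0.29 to 0.68.

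In the model with the 4 group terms alone, Epgn had the largest difference among the members. It was lower in CD26+ NFs by a log2 difference of -2.75 ± 0.33, or 6.72-fold, in control medium (FDR = 3.11e-06) and of -2.59 ± 0.26 in CM (FDR = 2.25e-07). Tgfa followed with -2.52 ± 0.27 (FDR = 7.34e-07) and -2.16 ± 0.19 (FDR = 4.24e-08). Areg was lower by -2.26 ± 0.32 (FDR = 1.68e-05) and -2.16 ± 0.23 (FDR = 4.00e-07), and Hbegf by -1.50 ± 0.18 (FDR = 2.85e-06) and -1.06 ± 0.13 (FDR = 1.70e-06). For these 4 ligands no CD26+ library reached a CD26- library of the same medium.

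Ereg and Nrg1 changed their place between the media. Ereg was lower in CD26+ NFs by a log2 difference of -2.01 ± 0.24 in control medium (FDR = 2.83e-06), and by -0.70 ± 0.16 in CM (FDR = 0.00127), where the groups overlapped. CD26+ NFs with CM, at 176 ± 43.6 CPM (SD, n = 6), thus stood near CD26- NFs without CM, at 169.6 ± 10.7 CPM (SD, n = 3). Nrg1 had a difference of -0.29 ± 0.18 in control medium (FDR = 0.201), where the libraries of the cell types did not overlap. In a fit of the 2 control groups alone this difference passed the FDR at -0.29 ± 0.087 (FDR = 0.0138). In CM Nrg1 was higher in CD26+ NFs by 0.68 ± 0.12 (FDR = 8.80e-05). Paired by line, Nrg1 was higher in the CD26+ culture with each of the 6 lines, by the smallest margin with 13-MCB-138 (70.9 against 67.5 CPM). Btc had a log2 difference of -0.91 ± 0.51 in control medium (FDR = 0.150), again without overlap of the libraries. That difference passed the FDR with the replicate block (-0.91 ± 0.34, FDR = 0.0326) and with the 2 control groups alone (-0.92 ± 0.16, FDR = 0.000413), so that 8 members were lower in the fit of these groups, in which 8074 genes passed, against 7186 in the fit of all groups. In CM it was -0.27 ± 0.30 (FDR = 0.462). For Egfr the difference was 0.01 in control medium, with a 95% confidence interval from -0.29 to 0.31, and 0.22 ± 0.10 in CM (FDR = 0.0625). That last value passed the FDR without CM replicate 6 (0.0241), 9 (0.0281) or 18 (0.00788).

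Epithelial markers moved with these differences. Of 19 tested epithelial markers, CD26+ NFs had 16 lower in control medium and 16 in CM, with a median log2 difference of -2.13 and -2.04, and among the 20 genes only Elf5 was at 0 counts throughout a group, the CD26+ control libraries. Krt18 was at 1014 to 1609 CPM in CD26- and 181 to 448 CPM in CD26+ libraries, and Cdh1 at 270 to 460 against 50.7 to 127 CPM. The mean log2 level of these markers did not overlap between the cell types, so their part in the cell type differences and that of CD26 cannot be told apart. With that mean as a covariate, 1 member passed the FDR between the cell types in control medium (Ereg, -2.16, FDR = 0.0170) and 0 in CM. Over all tested genes 5.34% passed the FDR with the covariate in control medium and 6.05% in CM, so the members' counts lie near the general share. Log2 differences with the covariate in control medium were -0.47 ± 0.34 for Erbb3, -0.49 ± 0.48 for Areg, -0.41 ± 0.21 for Hbegf, -1.08 ± 0.39 for Tgfa and -0.36 ± 0.41 for Epgn. Those of Ereg and Nrg1 in CM were -0.83 ± 0.42 and 0.55 ± 0.29, beside -0.70 ± 0.16 and 0.68 ± 0.12 without the covariate. Both errors were wider with the covariate. Because that mean follows the cell type, the size of such shifts cannot tell the part of the markers from that of CD26. Btc had -1.79 ± 0.97 in control medium (FDR = 0.309) and -1.07 ± 0.81 in CM (FDR = 0.462). Schwann cell and glial markers summed to 20.3 to 33.6 CPM in CD26- and 6.67 to 12.7 CPM in CD26+ libraries, immune cell markers to 14.6 to 29.7 CPM and endothelial markers to 1.86 to 8.77 CPM overall.

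With the same covariate, the members past the FDR for CM stayed so, except Egfr in CD26- NFs. Epgn in CD26+ NFs also passed it (-0.63 ± 0.20, FDR = 0.0227). Nrg1 rose by 1.09 ± 0.17 and 2.08 ± 0.17 on the log2 scale in CD26- and CD26+ NFs, Ereg by 0.73 ± 0.22 and 2.06 ± 0.23, and the differences between cell types were 0.98 for Nrg1 (FDR = 0.0157) and 1.33 for Ereg (FDR = 0.0140). Hbegf and Epgn were lower in CD26- NFs by -0.36 ± 0.09 (FDR = 0.0172) and -0.55 ± 0.14 (FDR = 0.0172). Egfr in CD26- NFs had 0.37 ± 0.13 with an FDR of 0.0750. CM itself moved 2 of the 19 epithelial markers past the FDR in CD26- NFs, 1 in each direction, and lowered 1 in CD26+ NFs. The median log2 fold change of the markers was -0.36 in CD26- NFs, beside 0.01 over all tested genes, and -0.07 in CD26+ NFs, beside -0.00. The part of the markers in the falls of Hbegf and Epgn was not tested.

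Differences between the 6 lines that both cell types share were tested in the 12 CM libraries. Epgn alone of the 10 members passed the FDR (F = 9.92, FDR = 0.0347), against 6.28% of tested genes. It was highest with 13-MCB-44 in both cell types, at 15.4 and 2.85 CPM, and lowest with 13-MCB-17 in CD26- NFs (6.49 CPM) and with 18-MCB-12 in CD26+ NFs (0.844 CPM). That call was lost in 9 of the 12 fits without a CM library. Hbegf was also highest with 13-MCB-44 in both cell types, at 112 and 65.4 CPM (FDR = 0.106), and Erbb3 was highest with 13-MCB-90 and lowest with 18-MCB-12 in both (FDR = 0.135). The epithelial score, the mean log2 CPM of the epithelial markers, was highest among CM libraries with 13-MCB-44 in both cell types, at 6.65 and 5.27, and its part in these values was not tested. Btc was lowest with 13-MCB-138 in both (FDR = 0.154). Nrg1 (FDR = 0.661) and Egfr (FDR = 0.914) showed no shared order of the lines past the threshold. With no filter on low counts 6 members passed, and in the likelihood ratio test of DESeq2 4 did, while the number of all genes that passed was 2475 and 1387, against 897 in edgeR with the filter.

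**Figure D4:**
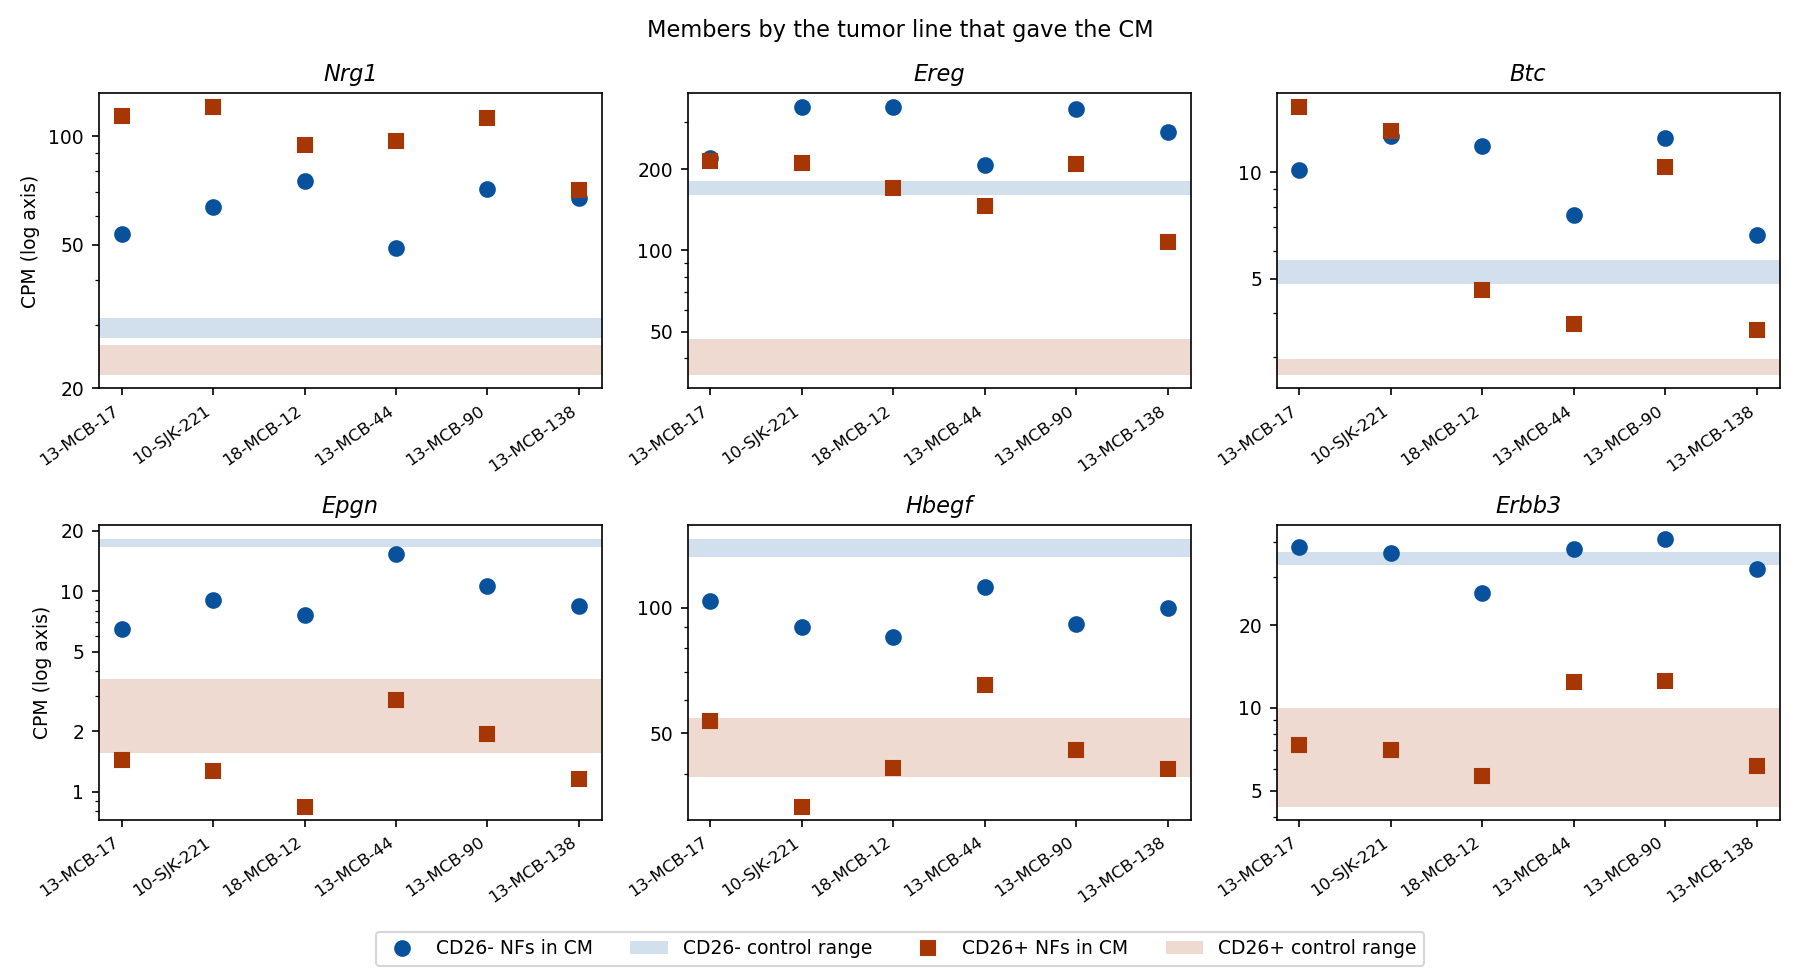
CPM (log axes) of 6 members in CM libraries by the tumor line that gave the CM, for CD26- NFs (circles) and CD26+ NFs (squares); shaded bands span the 3 control libraries of each cell type. Nrg1, Ereg and Btc lie above their bands with every line, Hbegf and Epgn below them in CD26- NFs, and Epgn peaks with 13-MCB-44 in both cell types.

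Per kb of exon, Ereg was the most abundant ligand transcript in CD26- controls (41.1 ± 2.58 CPM per kb, SD, n = 3), followed by Areg (30.1 ± 3.49) and Hbegf (28.6 ± 1.51), which did not differ beyond their spread. Epgn (9.62 ± 0.473), Tgfa (7.02 ± 0.547), Nrg1 (2.82 ± 0.192) and Btc (1.16 ± 0.0883) came next. In CD26+ controls Ereg (10.2 ± 1.61) and Hbegf (10.1 ± 1.75) were level within their spread, and Areg (6.30 ± 1.78) was the next. In CD26+ NFs with CM, Ereg stood at 42.7 ± 10.6 CPM per kb (SD, n = 6), and Nrg1 (9.81 ± 1.75) and Hbegf (9.66 ± 2.34) followed without a difference beyond their spread. The 7 ligands summed to 120 ± 2.75, 136 ± 18.0, 32.3 ± 6.11 and 72.4 ± 14.3 CPM per kb in CD26- control, CD26- CM, CD26+ control and CD26+ CM libraries. These lengths are unions of all annotated exons, and the isoforms that the cells use were not measured.

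As a share of that sum, Ereg took 34.1% ± 1.95 in CD26- controls and 50.4% ± 5.66 with CM, and 31.8% ± 1.16 in CD26+ controls and 58.6% ± 6.24 with CM (SD, n = 3 and 6). Nrg1 made up 2.34% ± 0.119, 4.50% ± 0.542, 7.30% ± 1.04 and 13.6% ± 0.891 in the same order, with no overlap between the 4 groups. Hbegf went from 23.8% ± 0.892 to 15.1% ± 3.37 in CD26- NFs and from 31.5% ± 1.16 to 13.7% ± 3.81 in CD26+ NFs. The share of Areg was 25.0% ± 2.89 and 20.1% ± 3.16 in CD26- NFs without and with CM, and 19.3% ± 2.06 and 8.53% ± 3.37 in CD26+ NFs. Shares of a sum are not independent of each other, and no test was made on them.

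**Figure D5:**
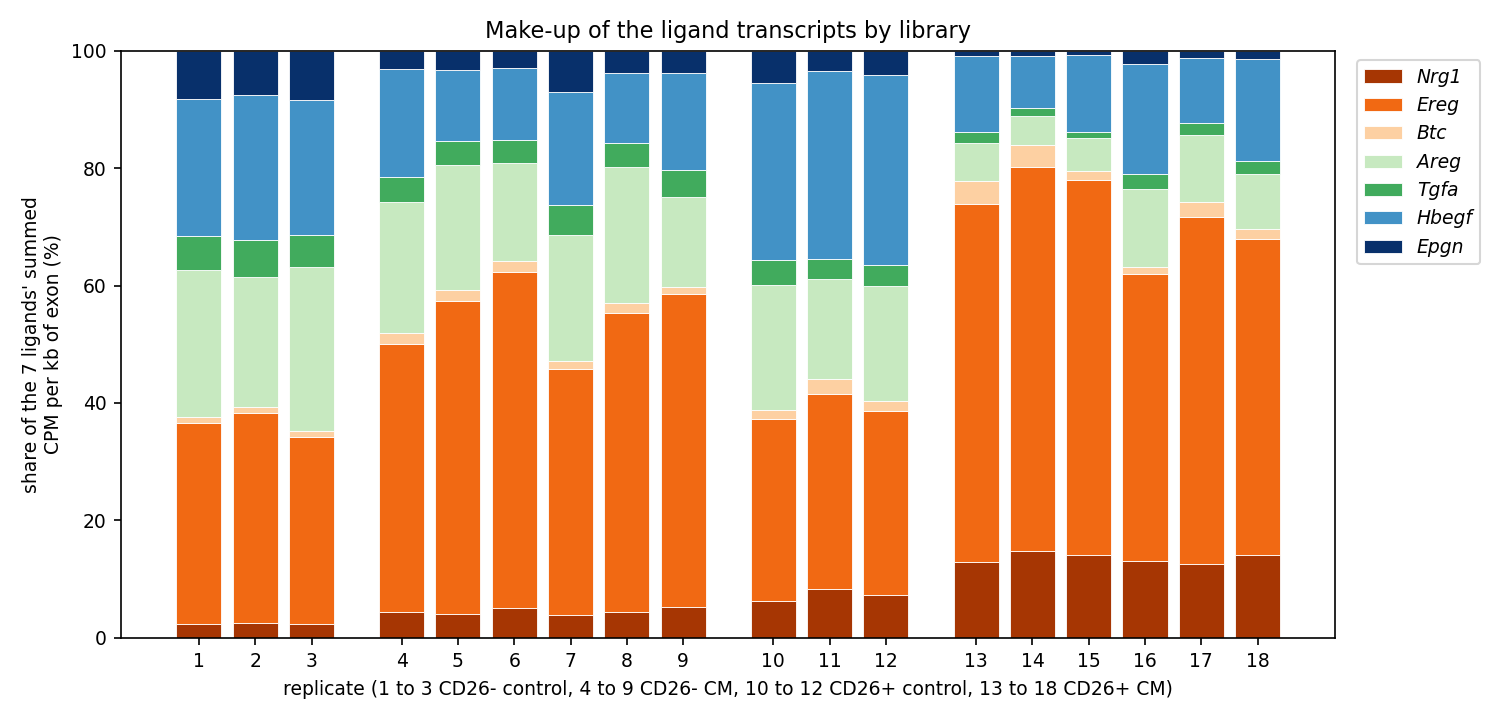
Share (percent) of each ligand gene in the summed CPM per kb of exon of the 7 ligands, as stacked bars for each library, numbered by replicate and set apart by group. Ereg and Nrg1 together take more of the bar in CM libraries than in control libraries of the same cell type, and Epgn and Hbegf take less.

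The other 5 family genes were near the floor. Egf, the ligand after which the family is named, was the only other tested gene, with 6 to 22 reads per library. It was at 0.512, 0.541 and 1.26 CPM in CD26- and 1.41, 1.54 and 1.63 CPM in CD26+ controls, a log2 difference of 1.03 ± 0.35 (FDR = 0.0223). Its CM effect was 0.16 in CD26- NFs (FDR = 0.789) and -0.41 in CD26+ NFs (FDR = 0.302). Besides Erbb4, which was at 0, the neuregulin genes Nrg2, Nrg3 and Nrg4 had at most 6, 1 and 15 reads in a library. The group with the highest mean was CD26+ CM for Nrg2 and CD26- CM for Nrg4, at 0.260 and 0.593 CPM.

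Genes of the ErbB pathway were counted in 4 lists, of which all genes were tested. The shares of all tested genes to set beside these counts are, for CM, 7.88% higher and 7.28% lower in CD26- NFs and 15.2% higher and 13.4% lower in CD26+ NFs. Between the cell types they are 25.0% higher and 25.4% lower in control medium, and 29.3% in either direction in CM. Ligand shedding genes encode the ADAM proteases that release the ligands and the iRhoms and FRMD8 that support ADAM17. With CM, CD26- NFs had 0 of the 9 higher and 1 lower past the FDR (6 at an unadjusted p under 0.05), and CD26+ NFs 4 higher and 1 lower, with a median log2 fold change of 0.06. The 1 of 9 lower is near the share of all genes in both cell types. Rhbdf2, the gene of iRhom2, rose in CD26+ NFs from 9.52 to 25.9 CPM (1.45 ± 0.16, FDR = 7.58e-06), more than in CD26- NFs (difference 1.08 ± 0.21, FDR = 0.00691). Compared with CD26- NFs, CD26+ NFs had 4 of the 9 shedding genes higher and 3 lower without CM (median 0.20), and 6 higher and 2 lower with CM (median 0.27). Adam12 was higher by 1.06 ± 0.19 in control medium (FDR = 0.000201) and Adam17 by 0.52 ± 0.04 in CM (FDR = 2.37e-08). Rhbdf2 went the other way, by -2.11 ± 0.18 in control medium and -1.03 ± 0.12 in CM (FDR = 8.24e-08 and 7.63e-07), as did Frmd8 by -0.56 ± 0.08 and -0.55 ± 0.05. Adam17 rose in CD26+ NFs by 0.34 ± 0.05 and Adam19 by 0.73 ± 0.12 (FDR = 0.000170 and 0.000297), whereas Adam10 in CD26- NFs fell by 0.39, again log2 (FDR = 0.00218).

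Most of the listed feedback inhibitors dampen the receptors or the ERK pathway, and many are themselves induced by it. Socs3 is not specific to this pathway. Among the 14 listed genes, CM raised 5 and lowered 1 in CD26- NFs (median 0.32). In CD26+ cultures it raised 7 and lowered 0 (median 0.49), with 9 at an unadjusted p under 0.05. Lrig1, whose product promotes the breakdown of ErbB receptors, rose from 96.6 to 185 CPM in CD26- NFs (0.94 ± 0.20, FDR = 0.00459) and from 59.8 to 213 CPM in CD26+ NFs (1.84 ± 0.21, FDR = 6.83e-06). Errfi1, which encodes the EGFR inhibitor MIG6, rose in CD26+ NFs by 0.97 ± 0.12 (FDR = 1.80e-05), more than in CD26- NFs (difference 0.58 ± 0.16, FDR = 0.0374). Spry2 and Socs3 rose in CD26- NFs by 0.55 ± 0.09 and 0.80 ± 0.11 (FDR = 0.00101 and 0.000273). The difference between the CM effects was negative for Socs3 (-0.53 ± 0.14, FDR = 0.0317), and 2 of the 14 genes had a positive and 1 a negative difference past the FDR, against 4.53% and 3.01% of tested genes. Between the cell types in control medium 3 of the 14 were higher, near the share of all genes, and 6 were lower in CD26+ NFs (median -0.44), and in CM 4 were higher and 4 lower (median 0.10), both near the share of all genes. Values in control medium were, for example, 1.63 ± 0.12 for Socs3, and -2.05 ± 0.26 and -0.80 ± 0.13 for the ERK phosphatase genes Dusp5 and Dusp6.

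Of 13 receptor adaptor and turnover genes, 2 moved with CM in CD26- NFs (Shc1 by 0.16 ± 0.04, and Gab1, which fell by 0.35 on the log2 scale), 1 in each direction and near the share of all genes. In CD26+ NFs 7 rose and 1 fell (median 0.13), among them the phosphatase gene Ptpn11 by 0.24 ± 0.04, the adaptor gene Grb2 by 0.18 ± 0.05 and the ubiquitin ligase gene Cbl by 0.32 ± 0.09. Compared with CD26- NFs, CD26+ NFs had 3 of the 13 higher and 7 lower without CM (median -0.17), and 3 higher and 1 lower with CM (median 0.03). The 3 higher in control medium were Cblb (0.82 ± 0.12), Shc1 (0.41 ± 0.05) and Plcg1 (0.22 ± 0.05), near the share of all genes. The 7 lower, named after their values were seen, were Cbl, Gab1, Rnf41, Ptpn11, Sos1, Eps15 and Grb2, by small log2 differences from -0.31 ± 0.11 for Cbl to -0.17 ± 0.06 for Grb2. Early ERK-responsive genes numbered 15. In CD26- cultures CM raised 3 and lowered 0, with 7 at an unadjusted p under 0.05, namely Myc by 0.50 ± 0.11, Fosl1 by 0.72 ± 0.20 and Egr1 by 0.48 ± 0.15. In CD26+ cultures it raised 4 and lowered 0, also the 4 at an unadjusted p under 0.05, among them Jun by 0.91 ± 0.18, Phlda1 by 0.83 ± 0.16 and Egr2 by 0.34 ± 0.07. CD26+ NFs had 4 of the 15 higher and 6 lower than CD26- NFs without CM (median -0.13), and 3 higher and 7 lower with CM (also -0.13). Ier3 was lower in CD26+ NFs in control medium by -1.74 ± 0.22 and in CM by -1.44 ± 0.15, as was Etv4 by -0.86 ± 0.10 and -0.74 ± 0.07.

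The genes whose log2 CPM followed a member most closely over the 18 libraries were listed as a description, among 11124 genes that share the same libraries and groups. Nrg1 was closest to Srgap3 (Pearson r = 0.99), Sipa1l1 (0.98) and Rgs7bp (0.97). Ereg was closest to Thbd (0.98), the gene of thrombomodulin, Axl (0.98), a receptor tyrosine kinase gene, and Slc48a1 (0.97), and Btc to Parvb (0.96), Frmd4a (0.95) and Zfp36l2 (0.95). Erbb3 and Areg shared Ocln, the gene of the tight junction protein occludin, as the closest gene (0.99 each), and Hbegf was closest to Lama3 (0.99), Macc1 (0.99) and Trp53i11 (0.99). Tgfa was closest to Unc13b, Itga3 and Epha2 at 0.99 each. For Egfr the highest values were lower, with Gmfb, Pura and Garem2 at 0.92 each, and for Erbb2 they were Rbpj-ps3, Oaf and Dab2 at 0.94 each. Among the members themselves, Erbb3, Areg and Tgfa were correlated with each other at 0.98, Hbegf with Epgn at 0.96 and Egfr with Nrg1 at 0.90.

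Some members share exon sequence with a gene on the opposite strand in GENCODE release M21. The overlap is 482 bases between Nrg1 and Gm26578, 141 bases between Ereg and Gm19610, 118 bases between Tgfa and Gm43917 and 9 bases between Erbb2 and Mien1. The libraries were stranded, and the strand setting of the counting was not given in the sources used here. How reads from these stretches were counted is therefore not known.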

How the data were processed

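Polyadenylated RNA of 18 cultures of mouse mammary NFs was sequenced from stranded libraries. The deposited table holds raw read counts per Ensembl gene that the authors made from single-end reads without normalization, and their processing notes name HISAT2 2.1.0, HTSeq and GRCm38. The strand setting and annotation release were not given in the sources used here. Samples were grouped by the labels, and no library was left out. A row without a gene (1 row with 0 counts) was dropped.

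Genes were kept with filterByExpr by group (14273 of 55486, holding at least 99.85% of the counts of a library), normalized by TMM and tested with edgeR 4.0.16 under R 4.3.3, by the quasi-likelihood functions glmQLFit and glmQLFTest. The model had 4 group terms and a common biological coefficient of variation of 0.117. The 5 comparisons were the CM effect in each cell type, the cell types in each medium, and the difference between the CM effects. A sixth test took the line terms together in the 12 CM libraries, with a term for cell type. The study used DESeq2 at an FDR under 0.05 and a log2 fold change over 2 or under -2, and DESeq2 1.42.0 was run as an alternative. Total counts were 9725723 to 14585349 per library, and intervals of the floor cover counting error only. Exon lengths came from GENCODE release M21 on GRCm38, whose coordinates match the table for every member except Nrg1. Promoters came from RefSeq (GRCm38.p6). The scripts were tested on simulated counts with 200 changed genes.

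Replicates of a group were compared in 36 pairs over genes with at least 20 counts, where chi-square divided by its degrees of freedom was at least 3.22, so no library was counted as a copy. The labels give no batch. The 2 libraries that shared a line deviated together from their group means (r = 0.247 to 0.406 in all 6 pairs), so the line pairs the CM libraries, and a fit with the line as a replicate block was an alternative. Other alternatives were RLE and upper-quartile scaling, no filter, a floor of 5 CPM on the highest group mean, a limit of 1 or 2 on the log2 fold change (2 was added after seeing the data), fits of the groups compared alone, an epithelial covariate, and leaving out each library.

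The members, lists and tests were chosen with earlier results of these data known. All 10 members and 5 other family genes are named. For each pathway list and comparison up to 3 genes with the smallest p past the FDR whose highest group mean reached 5 CPM could be named. The adaptor and turnover genes that were lower in control medium were named beyond this limit. For likeness the 3 genes with the highest Pearson r of log2 CPM (prior count 2) were taken. Some items are not reported here.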

Additional observations from a re-analysis of the deposited data

Results flagged for a closer look

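Ereg responded to CM more in CD26+ than in CD26- NFs (log2 difference 1.31 ± 0.29, edgeR interaction, FDR = 0.0120), and all 6 CM libraries lay above all controls in both cell types. Nrg1 did so too, with a difference of 0.97 ± 0.22 (FDR = 0.0137) and again 6 of 6 CM libraries above the controls in each cell type. Without CD26+ control replicate 11 neither passed the FDR, with differences of 1.17 for Ereg (FDR = 0.0584) and 0.89 for Nrg1 (FDR = 0.0599). These were the 2 members whose CM effects differed between the cell types by a test of the difference itself. Among the 20 groups of 6 CM libraries that were examined, 10 members in each of 2 cell types, no library stood apart by its gap to the others.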

How the results depend on the processing

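Member counts past the FDR were 5, 4, 6 and 7 for CM in CD26- NFs, CM in CD26+ NFs, the cell types in control medium and in CM, 2 for the difference in CM effect and 1 for the CM line, and RLE and upper-quartile scaling and a floor of 5 CPM on the highest group mean gave the same counts. Of 1460 values recomputed for the 10 members, 1348 kept their direction and side of the threshold, 48 lost the FDR, 27 gained it and 37 changed sign, 0 of these past the FDR. With the limit of 2 on the log2 fold change the counts were 0, 2, 5, 4 and 0, and with a limit of 1 they were 1 for CM in CD26- NFs and 1 for the difference. With the epithelial covariate the cell type counts fell to 1 and 0, and the following changed sign. The CM effect of Areg became 0.13 and 0.0029 in CD26- and CD26+ NFs, the cell type difference -0.13 for Egfr and -0.051 for Erbb2 in control medium and -0.018 for Erbb2 in CM, and the difference in CM effect -0.036 for Erbb3, -0.12 for Areg and -0.083 for Epgn. Upper-quartile scaling turned the difference for Erbb2 to -0.011, and DESeq2 that of Egfr between cell types in control medium to -0.0011. Fits of the groups compared alone gave 6, 3, 8 and 7 members in the first 4 comparisons, gaining Btc for CM in CD26- NFs and Btc and Nrg1 between cell types in control medium and losing Btc for CM in CD26+ NFs. The line test gave 6 members without a filter and 4 with DESeq2. The causes of these shifts were not tested.

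Leaving out a library gave 1 to 5 members for CM in CD26- NFs, 0 to 2 for the difference in CM effect and 0 to 3 for the line. Log2 values that crossed 0 ranged from -0.022 to 0.10 for Erbb3 with CM in CD26- NFs, and with CM in CD26+ NFs from -0.13 to 0.40 for Erbb3, -0.26 to 0.14 for Areg, -0.22 to 0.0063 for Hbegf and -0.11 to 0.31 for Tgfa. Egfr between cell types in control medium ranged from -0.014 to 0.038, and the difference in CM effect from -0.019 to 0.060 for Erbb2, -0.16 to 0.37 for Erbb3, -0.12 to 0.28 for Areg and -0.12 to 0.47 for Epgn.

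Over all tested genes the count past the FDR for CM in CD26- NFs was 2164, and 825 to 2748 without a library, and 1075 and 339 to 2345 for the difference. With the CM line as a replicate block these counts were 3784 and 2516, and the block gave 7, 6, 7, 7 and 2 members. Beyond the results given for Erbb2, Btc and Epgn, the block moved no other member across the FDR threshold. The line test had 897 genes, 2475 without a filter and 1387 with DESeq2, and between the cell types the count was 762 and 863 genes with the epithelial covariate and 7186 and 8360 without it. Epgn in CD26+ NFs rests on 10 to 45 reads per library and Egf on 6 to 22, which limits their precision.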
